A study of Mus musculus with 6 samples.

Results

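The 31 genes described here encode the enzymes and carriers that bring pyruvate and glutamine carbon into the mitochondrial tricarboxylic acid (TCA) cycle, turn the cycle, and carry its products out. They were listed by name and function, with earlier results of these data known, from the 17546 genes of the deposited count table, which holds all 31. Their transcripts were measured by bulk RNA-seq in group 2 innate lymphoid cells (ILC2s), which lack the antigen receptors of T and B cells and secrete type 2 cytokines. The cells were isolated from the lungs of BALB/c mice given 3 intranasal injections of 1 µg of recombinant IL-33, an alarmin that activates ILC2s, and were then kept with recombinant IL-7 and IL-2 (10 ng/mL of either). One group of 3 libraries, Yoda1 4, 5 and 6, came from cells that had 10 µM Yoda1 in this medium for 24 h. The other 3 libraries, DMSO 1, 2 and 3, came from cells that had DMSO, the solvent, for 24 h, with the same IL-33, IL-2 and IL-7. Yoda1 chemically activates Piezo1, a cation channel that responds to mechanical force, so the comparison asks whether the transcripts of central carbon metabolism differ when the channel is activated. All cells were in IL-33-activated, cytokine-fed culture, and no library came from resting ILC2s.

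The TCA cycle oxidises acetyl groups to carbon dioxide and passes the electrons to the respiratory chain. Pyruvate enters mitochondria through a carrier and is turned into acetyl-CoA by the pyruvate dehydrogenase complex, while glutamine enters as glutamate and 2-oxoglutarate. Dividing lymphocytes also draw on the cycle for building blocks: citrate leaves for lipid synthesis and oxaloacetate becomes aspartate, which nucleotide synthesis needs. The malate-aspartate shuttle, made of malate dehydrogenases, aspartate aminotransferases and their carriers, moves electrons from cytosolic NADH into mitochondria.

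Total counts were 15355158 to 17322050 in the Yoda1 libraries and 14214048 to 31627519 in the DMSO libraries, and every library held at least 127 counts of each of the 31 genes. The labels give DMSO 2 and DMSO 3 the same library number, and likewise Yoda1 4 and Yoda1 5, so a group may hold fewer than 3 independent samples. Nothing in the labels says that libraries came from separate mice or cultures, and p-values reflect only how these libraries vary, which could be technical. All 13 markers of ILC2s were in the table. Their summed level, in CPM (counts scaled to a common total, here of all counts), was 11796 to 12905 in the Yoda1 libraries. In the DMSO libraries it was 11219 to 11849. Il5 made up much of this sum, at a mean of 6566 CPM. Thy1 was the lowest of the 13. Scaled between libraries by TMM, Thy1 was at 1.23, 0.115 and 1.07 CPM in Yoda1 4, 5 and 6. In DMSO 1, 2 and 3 it was at 2.87, 1.89 and 1.49 CPM. Of the 13, 8 had negative and 5 positive log2 changes with Yoda1. In the edgeR test described below 2 passed, both lower, where 1.49% of all tested genes passed. They were Icos (-0.89, Benjamini-Hochberg adjusted p = 0.00423) and Il2ra (-0.67, 0.00707). Of 10 epithelial markers 9 were in the table. Their summed level was 59.7, 55.2 and 76.1 in Yoda1 4, 5 and 6, against 91.6, 428 and 412 in DMSO 1, 2 and 3. The 9 did not move together. Sftpd, Cdh1 and Krt8 were listed at 0 in every Yoda1 library and in DMSO 1, but Sftpc was highest in DMSO 1, at 15.3 CPM, and at most 0.569 CPM in any other library. On the scale of tested genes, scaled between libraries by TMM, Sftpa1 was at 0, 0.923 and 0.0597 CPM in Yoda1 4, 5 and 6, against 3.75, 21.3 and 21.7 CPM in DMSO 1, 2 and 3. Epcam had overlapping groups, at 57.8, 48.8 and 71.6 CPM in Yoda1 4, 5 and 6, against 67.4, 64.5 and 65.9 CPM in DMSO 1, 2 and 3. Macrophage and monocyte markers, 7 of 10 in the table, summed to 20.0 to 27.4 in the Yoda1 libraries and 11.6 to 14.9 in the DMSO libraries. The highest epithelial marker was Scgb1a1, at 0 in Yoda1 4, Yoda1 5 and DMSO 1. It was at 0.0585 CPM of all counts in Yoda1 6, against 302 in DMSO 2 and 293 in DMSO 3. It made up most of the epithelial sum in DMSO 2 and DMSO 3, which share a library number. T cell markers, 3 of 5 in the table, summed to 19.3 to 29.1 in the Yoda1 libraries and 33.7 to 36.6 in the DMSO libraries. The part of these other cells in the results was not tested. Against DMSO 1 alone, the DMSO library with the lowest epithelial sum, the log2 changes were -0.95 for Idh2, -0.72 for Pcx, -0.56 for Got1, -0.34 for Got2 and -0.23 for Mdh2, against -0.94, -0.77, -0.45, -0.38 and -0.24 with all 3 DMSO libraries. In the same fit Suclg2 (-0.29), Pdhb (-0.011), Dlat (0.028), Pdhx (0.0048), Me2 (0.069), Slc25a1 (-0.036) and Acly (0.20) had the opposite sign to that with all libraries. This fit rests on a single DMSO library and called 0 of all genes.

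None of the 31 genes passed the test over all genes, and for 23 of them the interval of the difference stayed within 1.5-fold. The test was edgeR's quasi-likelihood test over 13325 genes, with Benjamini-Hochberg adjusted p under 0.05. It called 0 of the 31 lower and 0 higher, and 1.49% of all tested genes, 0.923% lower and 0.57% higher. Without adjustment, p was under 0.05 for 5 members, all lower with Yoda1 (Idh2, Pcx, Mdh2, Got1 and Got2), and 0 were higher, while 7.11% of all tested genes were lower and 7.39% higher at that level, 14.5% in all. DESeq2, an alternative test, called 3 members lower and 0 higher, where it called 8.69% of the genes to which it gave an adjusted p, 4.54% lower and 4.15% higher. The 3 were Got2 (DESeq2 Benjamini-Hochberg adjusted p = 0.00122), Idh2 (0.00661) and Got1 (0.0396). Limma voom called 0 members, where it called 2.25% of all genes, 1.34% lower and 0.908% higher. The median log2 fold change of Yoda1 over DMSO was -0.06 over the members and 0.01 over all tested genes, with 14 members above 0 and 17 below.

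The 95% interval of the log2 fold change lay within a 1.5-fold difference in either direction for 23 of the 31 genes (74.2%) and for 22.2% of all tested genes. These shares are not matched for level. The lowest member averaged 12.0 CPM, while the tested genes went down to 0.339 CPM. The median SE was 0.14 over the members and 0.27 over all tested genes. Over the 8080 genes at or above the level of the lowest member it was 0.19, and 2.28% of those were called. The 8 genes whose interval reached beyond 1.5-fold were Idh1, Idh2, Dld, Suclg2, Mpc2, Pcx, Got1 and Gpt2. The Yoda1 libraries all lay below the DMSO libraries for 6 members, which were the 5 above and Pck2, where 12.0% of all tested genes did so. They all lay above for 3, Idh3b, Dlst and Dld, where 10.6% of all genes did so. For the other 22 the groups overlapped; over all genes 22.6% did not. These cells were measured in bulk, so fewer cells that express a gene and less RNA per cell cannot be told apart.

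**Figure D1:**
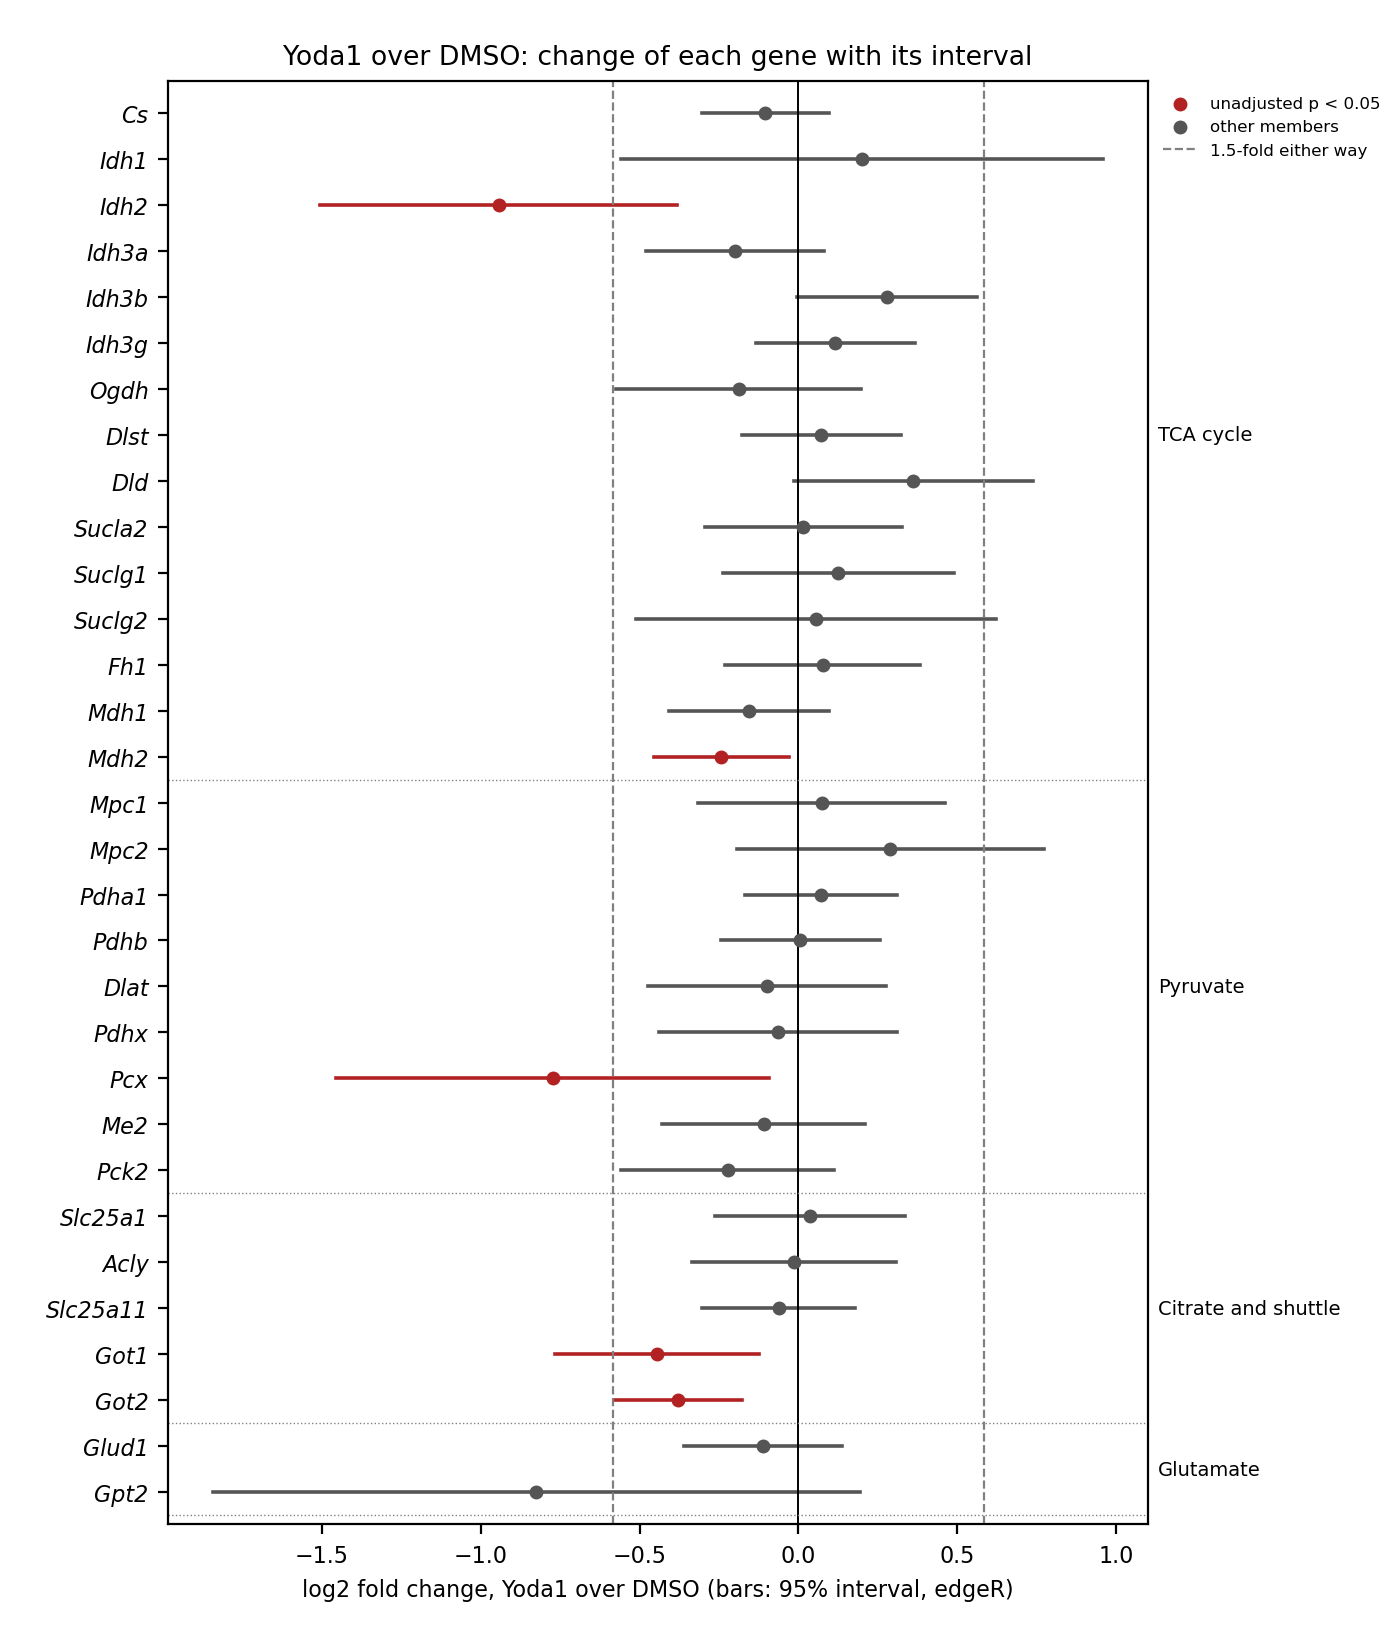
Log2 fold change of Yoda1 over DMSO for each of the 31 genes (x axis), ordered by role, with its 95% interval from edgeR's quasi-likelihood fit (n = 3 libraries per group). Red marks the 5 genes with an unadjusted p under 0.05, none of which passed after adjustment; dashed lines mark a 1.5-fold difference, and 23 intervals lie between them.

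The summed level of the 31 genes was 5435, 5361 and 5670.1 CPM in Yoda1 4, 5 and 6, against 5708, 5918 and 5996 CPM in DMSO 1, 2 and 3. CPM here and below are scaled between libraries by TMM. The sum was lower in each Yoda1 library than in each DMSO library, and the difference between the group means was -6.56%, given as a description with no test. The genes that differed most in CPM were Mdh2, Got2 and Mdh1, all lower with Yoda1. Over the remaining 28 genes the sums were 4061, 3867 and 4043 CPM in Yoda1 4, 5 and 6, against 3994, 4165 and 4141 CPM in DMSO 1, 2 and 3, and the groups overlapped. Because the largest falls were the genes left out, a narrower difference over the 28 was built in.

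**Figure D2:**
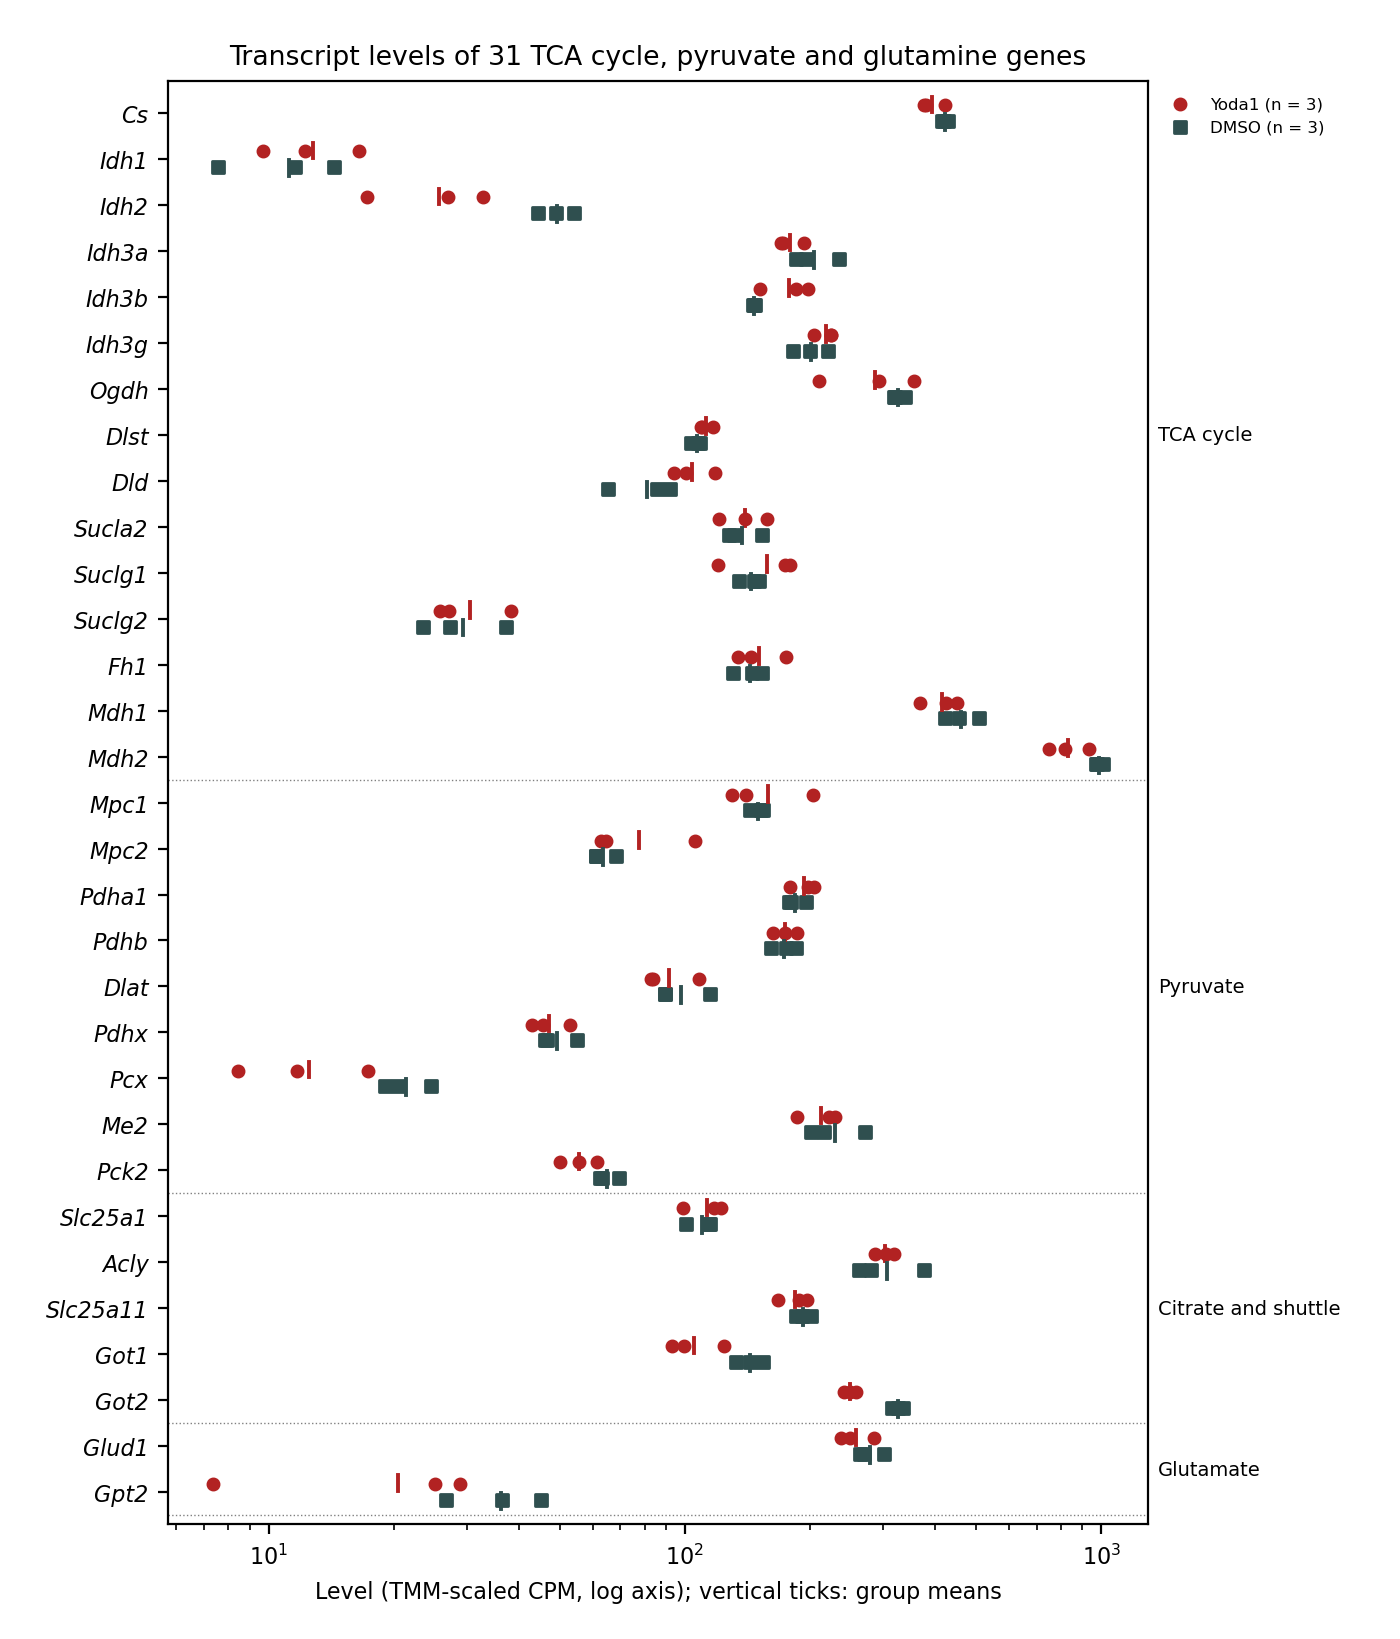
Level of each gene in the 3 Yoda1 libraries (circles) and the 3 DMSO libraries (squares) as TMM-scaled CPM on a log axis; vertical ticks are group means. Mdh2 is the highest in both groups, and Got2, Idh2, Pcx and Mdh2 are among the genes whose groups do not overlap.

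To compare genes with each other, levels were divided by transcript length, as CPM per kilobase of the longest principal GENCODE transcript. On that scale the mitochondrial malate dehydrogenase Mdh2, which remakes oxaloacetate at the end of the cycle, was the highest member at 573 ± 64.8 CPM per kilobase with Yoda1 and 678 ± 15.4 with DMSO (SD, n = 3 each). Its cytosolic partner Mdh1 came next at 195 with Yoda1 and 217 with DMSO (group means, CPM per kilobase). The lowest by their Yoda1 means were the pyruvate carboxylase gene Pcx at 3.07 with Yoda1 and 5.25 with DMSO, the isocitrate dehydrogenase gene Idh1 at 5.56 with Yoda1 and 4.85 with DMSO, and the mitochondrial alanine aminotransferase gene Gpt2 at 5.60 with Yoda1 and 9.91 with DMSO, again in CPM per kilobase. With DMSO, Suclg2 lay below Gpt2, at 8.69 CPM per kilobase. Within the pyruvate dehydrogenase complex, the E1 subunit gene Pdhb stood at 115 with Yoda1 and 115 with DMSO, and Pdha1, also of E1, at 68.0 with Yoda1 and 64.7 with DMSO, in CPM per kilobase. The core gene Dlat (E2) stood at 22.7 with Yoda1 and 24.3 with DMSO and Pdhx, which anchors E3 to the core, at 18.8 with Yoda1 and 19.7 with DMSO on the same scale. Citrate synthase, Cs, which joins acetyl-CoA to oxaloacetate, stood at 134 with Yoda1 and 144 with DMSO in CPM per kilobase.

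None of the enzymes of the cycle itself was called. Of 15 members of the cycle, 0 passed, 6 had negative and 9 had positive log2 fold changes, and the median was 0.06. Cs was measured at 422, 375 and 379 CPM in Yoda1 4, 5 and 6, against 419, 428 and 416 CPM in DMSO 1, 2 and 3. Yoda1 4 lay among the DMSO libraries and the other Yoda1 libraries below them, and the log2 change was -0.10 with a 95% interval of -0.30 to 0.10, so a 1.5-fold difference lies outside it. The fumarase gene Fh1, which hydrates fumarate to malate, was at 134, 175 and 144 CPM in Yoda1 4, 5 and 6, against 145, 153 and 130.5 CPM in DMSO 1, 2 and 3, and its groups overlapped (log2 change 0.08, SE 0.14). The reads of Fh1 could include those of Kmo, a gene that overlaps it.

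The NAD-dependent isocitrate dehydrogenase, which sets the pace of the cycle, is built from the catalytic subunit Idh3a and the regulatory subunits Idh3b and Idh3g. Idh3a was at 172, 170.5 and 193 CPM in Yoda1 4, 5 and 6, against 195, 234 and 185 CPM in DMSO 1, 2 and 3, with DMSO 2 the highest and the groups overlapping. Idh3b was at 185, 197 and 151 CPM in Yoda1 4, 5 and 6, against 148, 146 and 146 CPM in DMSO 1, 2 and 3. Every Yoda1 library was above every DMSO library for Idh3b, but the DMSO values differed little among themselves and Yoda1 6 lay close to them, and the log2 change of 0.28 (SE 0.12) did not pass (Benjamini-Hochberg adjusted p = 0.35 with edgeR). Idh3b overlaps Nop56, whose reads could be split with it. Idh3g was at 205, 224 and 224 CPM in Yoda1 4, 5 and 6, against 199.7, 221 and 182 CPM in DMSO 1, 2 and 3, with overlapping groups.

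The 2-oxoglutarate dehydrogenase complex turns 2-oxoglutarate into succinyl-CoA. Its E1 gene Ogdh was at 354, 211 and 293 CPM in Yoda1 4, 5 and 6, against 318, 338 and 321 CPM in DMSO 1, 2 and 3, where Yoda1 5 was low and Yoda1 4 was above every DMSO library. The E2 gene Dlst was at 117, 109 and 110.1 CPM in Yoda1 4, 5 and 6, against 109, 104 and 107 CPM in DMSO 1, 2 and 3, a difference of 0.07 on the log2 scale with an interval of -0.18 to 0.32, although no Yoda1 value was below a DMSO value. Dld, the E3 subunit that this complex shares with pyruvate dehydrogenase, was at 118, 94.3 and 100.5 CPM in Yoda1 4, 5 and 6, against 65.2, 92.1 and 85.8 CPM in DMSO 1, 2 and 3. Here DMSO 1 was the lowest and Yoda1 4 the highest library, the groups did not overlap, and the log2 change of 0.36 (SE 0.17) was the highest among the 31 genes and did not pass (Benjamini-Hochberg adjusted p = 0.36 with edgeR).

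Succinate-CoA ligase makes ATP or GTP depending on which beta subunit joins the shared alpha subunit. The alpha gene Suclg1 was at 120.3, 174 and 178 CPM in Yoda1 4, 5 and 6, against 147, 135 and 151 CPM in DMSO 1, 2 and 3, with Yoda1 4 below all DMSO libraries and the other Yoda1 libraries above them. The ADP-forming beta gene Sucla2 was at 139 ± 18.0 CPM with Yoda1 and 138 ± 13.8 CPM with DMSO (SD, n = 3 each) and the GDP-forming Suclg2 at 30.4 ± 6.82 CPM with Yoda1 and 29.3 ± 7.08 CPM with DMSO. Neither differed beyond the spread between libraries, with log2 intervals of -0.30 to 0.33 for Sucla2 and -0.51 to 0.62 for Suclg2.

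Mdh2, on chromosome 5 at 135778480 to 135790398 (GRCm38), was at 749, 819.7 and 936 CPM in Yoda1 4, 5 and 6, against 977, 972 and 1013 CPM in DMSO 1, 2 and 3. All Yoda1 libraries were below all DMSO libraries, with Yoda1 6 close to them, and the log2 change of -0.24 (SE 0.09, interval -0.45 to -0.03) did not pass (Benjamini-Hochberg adjusted p = 0.279 with edgeR). The cytosolic Mdh1 was at 367, 425 and 450.0 CPM in Yoda1 4, 5 and 6, against 422, 455 and 508 CPM in DMSO 1, 2 and 3, and its groups overlapped (-0.16, SE 0.11).

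The NADP-dependent isocitrate dehydrogenases gave the lowest fold change and the largest shift within a pair. Idh2, the mitochondrial enzyme, which makes NADPH inside mitochondria, lies on chromosome 7 at 80094846 to 80115392 (GRCm38) and was at 32.7, 17.2 and 27.0 CPM in Yoda1 4, 5 and 6, against 49.1, 44.5 and 54.3 CPM in DMSO 1, 2 and 3. Each Yoda1 library was below each DMSO library, and Yoda1 5 was the lowest. The log2 change was -0.94 (SE 0.25, interval -1.51 to -0.38), the lowest among the 31 genes, and it did not pass (Benjamini-Hochberg adjusted p = 0.112 with edgeR). Without each library in turn its log2 change ran between -1.16 and -0.72 and never passed. Idh2 passed when only genes with at least 10 CPM in 3 libraries were tested (edgeR adjusted p = 0.0336). That fit called 448 of the 8518 genes it tested. Idh1, the cytosolic and peroxisomal enzyme, was at 16.5, 12.2 and 9.67 CPM in Yoda1 4, 5 and 6, against 11.6, 7.54 and 14.4 CPM in DMSO 1, 2 and 3, a low level with overlapping groups (0.20, SE 0.33).

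Ratios of counts within a library do not depend on scaling between libraries. The ratio of Idh2 to Idh1 counts was 1.98, 1.41 and 2.79 in Yoda1 4, 5 and 6, against 4.23, 5.90 and 3.78 in DMSO 1, 2 and 3. No Yoda1 ratio reached the lowest DMSO ratio, and the mean log2 ratio was 0.98 ± 0.49 with Yoda1 and 2.19 ± 0.33 with DMSO (SD, n = 3 each). The difference of -1.20 had p = 0.1 in an exact two-sided permutation test, the smallest that 3 against 3 libraries allow, and 0.35 after adjustment over the 7 pairs computed. Of the other 6 pairs, Mpc2 to Mpc1 also had groups that did not overlap, at 0.484, 0.460 and 0.518 in Yoda1 4, 5 and 6, against 0.443, 0.400 and 0.427 in DMSO 1, 2 and 3, with a log2 difference of 0.20 (exact permutation p = 0.1, adjusted p = 0.35). In the remaining 5 pairs the groups overlapped, with log2 differences from -0.09 for Mdh2 to Mdh1 to 0.15 for Idh3b to Idh3g.

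**Figure D3:**
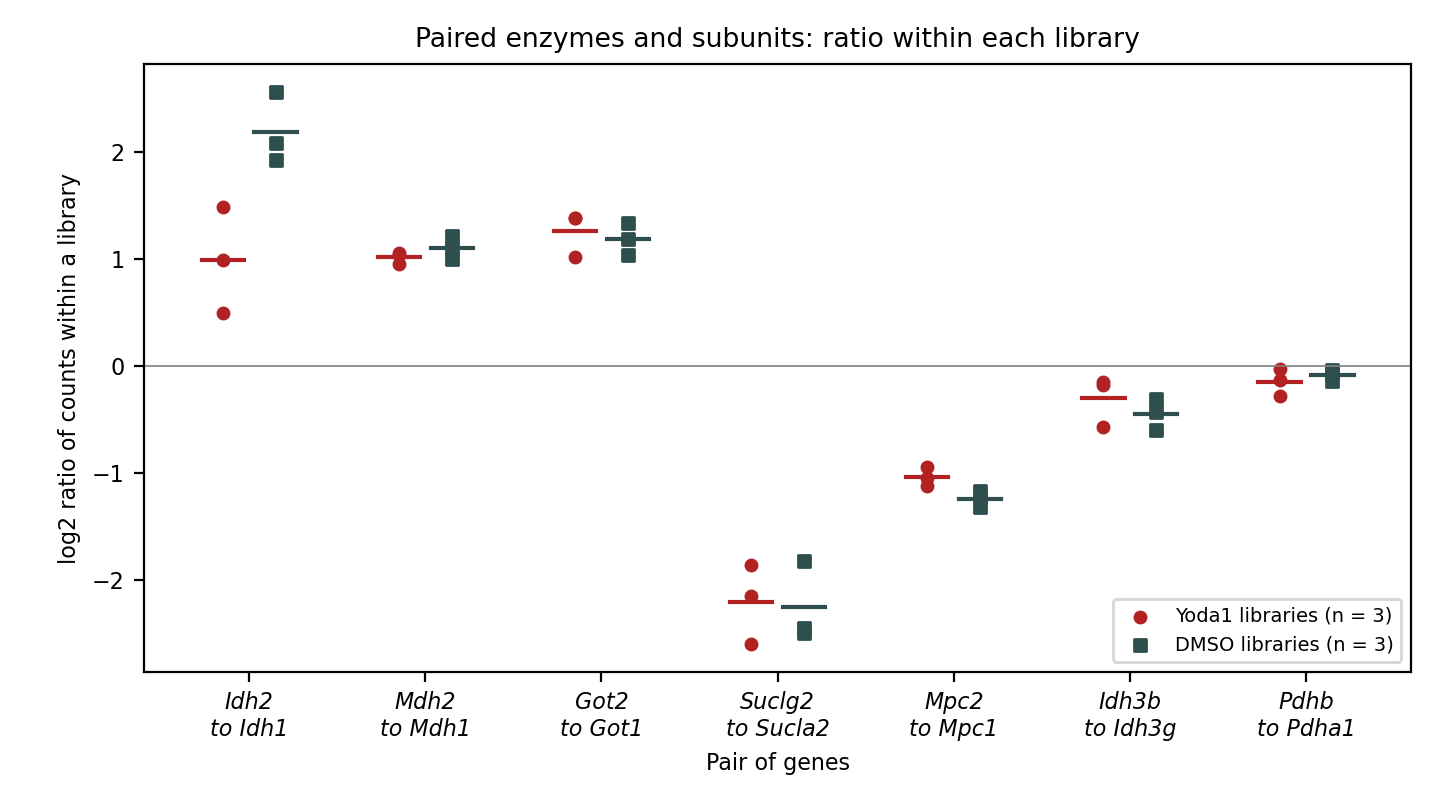
Log2 ratio of the counts of paired genes within each library (y axis) for 7 pairs; circles are Yoda1 libraries, squares DMSO libraries (n = 3 each), and horizontal bars group means. The Idh2 to Idh1 ratio is lower in every Yoda1 library than in every DMSO library, the Mpc2 to Mpc1 ratio is higher, and the groups overlap in the other 5 pairs.

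Of 9 members for the entry and exchange of pyruvate, 0 passed, and the median log2 fold change was -0.06. The mitochondrial pyruvate carrier is formed by Mpc1 and Mpc2. Mpc1 was at 130.0, 140.3 and 204 CPM in Yoda1 4, 5 and 6, against 154, 153 and 143 CPM in DMSO 1, 2 and 3, and Mpc2 was at 62.9, 64.5 and 106 CPM in Yoda1 4, 5 and 6, against 68.5, 61.0 and 61.1 CPM in DMSO 1, 2 and 3. Yoda1 6 alone was high for both genes, and the other Yoda1 libraries lay near the DMSO values. Without Yoda1 6 the log2 change of Mpc2 was 0.0047, against 0.29 with all libraries, and that of Mpc1 was -0.15, against 0.07.

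The pyruvate dehydrogenase complex, which commits pyruvate to acetyl-CoA, had overlapping groups at Pdha1, Pdhb, Dlat and Pdhx, unlike at Dld. Pdha1 was at 198, 178 and 205 CPM in Yoda1 4, 5 and 6, against 179.5, 196 and 178 CPM in DMSO 1, 2 and 3, and Pdhb at 162, 174 and 186 CPM in Yoda1 4, 5 and 6, against 175, 185 and 161 CPM in DMSO 1, 2 and 3. Both groups covered nearly the same range, with log2 intervals of -0.17 to 0.31 for Pdha1 and -0.24 to 0.26 for Pdhb. Dlat was at 91.5 ± 14.4 CPM with Yoda1 and 98.0 ± 14.8 CPM with DMSO and Pdhx at 47.2 ± 5.14 CPM with Yoda1 and 49.3 ± 5.02 CPM with DMSO (SD, n = 3 each), with log2 changes of -0.10 (SE 0.16) and -0.06 (SE 0.17).

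Pyruvate can instead be carboxylated to oxaloacetate by pyruvate carboxylase, encoded by Pcx. Pcx lies on chromosome 19 at 4510472 to 4621752 (GRCm38), overlaps Lrfn4, and was at 17.3, 11.7 and 8.41 CPM in Yoda1 4, 5 and 6, against 20.5, 19.0 and 24.5 CPM in DMSO 1, 2 and 3. The Yoda1 libraries were all lower and varied more, with Yoda1 6 the lowest. The log2 change of -0.77 (SE 0.30) did not pass (Benjamini-Hochberg adjusted p = 0.283 with edgeR). Me2, the mitochondrial malic enzyme that makes pyruvate from malate, was at 212 ± 23.0 CPM with Yoda1 and 229 ± 36.6 CPM with DMSO (SD, n = 3 each). Pck2, the mitochondrial enzyme that makes phosphoenolpyruvate from oxaloacetate, was at 50.0, 61.6 and 55.6 CPM in Yoda1 4, 5 and 6, against 62.6, 63.1 and 69.4 CPM in DMSO 1, 2 and 3. Its groups did not overlap, but Yoda1 5 and DMSO 1 nearly met, and the log2 change was -0.22 (SE 0.15, Benjamini-Hochberg adjusted p = 0.544 with edgeR).

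Both aspartate aminotransferases were lower in every Yoda1 library, and Got2 had the smallest p of the 31 genes. Got2, the mitochondrial enzyme, makes aspartate from oxaloacetate and glutamate, and Got1, the cytosolic enzyme, runs the reverse reaction in the malate-aspartate shuttle. Got2 lies on chromosome 8 at 95864134 to 95888547 and Got1 on chromosome 19 at 43499752 to 43524605 (GRCm38). Got2 was at 258, 249.9 and 241 CPM in Yoda1 4, 5 and 6, against 315, 326 and 335 CPM in DMSO 1, 2 and 3. The Yoda1 values lay close together and below all DMSO values, and the log2 change was -0.38 (SE 0.09, interval -0.58 to -0.18), with Benjamini-Hochberg adjusted p = 0.0804 with edgeR, above the threshold of 0.05. It passed when only genes with at least 10 CPM in 3 libraries were tested (edgeR adjusted p = 0.0366), a fit that called 448 of 8518 genes. Without each library in turn the edgeR adjusted p of Got2 ran from 0.0802 to 0.288. Got1 was at 99.4, 124 and 93.0 CPM in Yoda1 4, 5 and 6, against 154, 144 and 133 CPM in DMSO 1, 2 and 3, again with no Yoda1 library as high as a DMSO library. Its log2 change was -0.45 (SE 0.14, interval -0.77 to -0.12), and it did not pass (Benjamini-Hochberg adjusted p = 0.183 with edgeR). The Got2 to Got1 ratio of counts was 2.60, 2.02 and 2.60 in Yoda1 4, 5 and 6, against 2.04, 2.27 and 2.52 in DMSO 1, 2 and 3, and the ratio overlapped between the groups. Got2 overlaps a predicted gene, Gm45760, whose reads could be split with it.

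Slc25a11, the carrier that exchanges malate for 2-oxoglutarate in the shuttle, was at 196, 168 and 188 CPM in Yoda1 4, 5 and 6, against 191, 185 and 201 CPM in DMSO 1, 2 and 3, with overlapping groups and a log2 interval of -0.30 to 0.18. The citrate carrier Slc25a1, which takes citrate out of mitochondria, was at 118, 122 and 98.9 CPM in Yoda1 4, 5 and 6, against 115, 100.3 and 114 CPM in DMSO 1, 2 and 3. ATP-citrate lyase, Acly, which splits that citrate into acetyl-CoA and oxaloacetate, was at 304, 318 and 287 CPM in Yoda1 4, 5 and 6, against 262, 279.6 and 375 CPM in DMSO 1, 2 and 3. DMSO 3 was the highest library for Acly and the groups overlapped, as they did for Slc25a1. The log2 intervals were -0.26 to 0.34 for Slc25a1 and -0.33 to 0.31 for Acly.

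The sequences upstream of the aminotransferase genes are shown beside those of Pck2, Mdh2 and Idh2, other members whose groups did not overlap, to show what letters they share. Pcx, Idh3b, Dlst and Dld, whose groups did not overlap either, are not shown. Each is the 250 bases before the annotated transcript start (RefSeq, GRCm38.p6), and 29 of the 31 genes had such a window. The RefSeq starts are not always those of the GENCODE gene positions given above. In GENCODE, Mdh2 begins at 135778480, Got2 at 95888547 and Idh2 at 80115392, all inside their windows. By that annotation, part of each of these windows, with any motif there, lies within the gene and not upstream of it. Capitals mark the CCAAT box (CCAAT), the C/EBP-ATF response element (TGATGNAA), which ATF4 and its partners bind, and the palindrome CTCGCGAG, each on either strand. The windows are chr19:43524606-43524855, minus strand for Got1, chr8:95888402-95888651, minus strand for Got2, chr14:55540016-55540265, plus strand for Pck2, chr5:135778399-135778648, plus strand for Mdh2 and chr7:80115351-80115600, minus strand for Idh2.
Got1: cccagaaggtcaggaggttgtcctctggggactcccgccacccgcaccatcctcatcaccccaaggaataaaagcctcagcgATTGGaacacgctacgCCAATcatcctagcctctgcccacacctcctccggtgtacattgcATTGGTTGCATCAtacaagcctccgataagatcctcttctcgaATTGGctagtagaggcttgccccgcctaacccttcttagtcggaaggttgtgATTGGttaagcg
Got2: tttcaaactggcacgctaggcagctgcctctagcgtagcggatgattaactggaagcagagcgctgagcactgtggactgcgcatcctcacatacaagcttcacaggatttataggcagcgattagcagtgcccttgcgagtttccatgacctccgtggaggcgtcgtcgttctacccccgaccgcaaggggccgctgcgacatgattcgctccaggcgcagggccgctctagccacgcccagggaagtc
Pck2: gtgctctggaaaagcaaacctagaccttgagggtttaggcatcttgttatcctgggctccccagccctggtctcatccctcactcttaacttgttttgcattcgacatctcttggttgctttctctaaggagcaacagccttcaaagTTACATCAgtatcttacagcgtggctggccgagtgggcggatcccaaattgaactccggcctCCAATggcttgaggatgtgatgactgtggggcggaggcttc
Mdh2: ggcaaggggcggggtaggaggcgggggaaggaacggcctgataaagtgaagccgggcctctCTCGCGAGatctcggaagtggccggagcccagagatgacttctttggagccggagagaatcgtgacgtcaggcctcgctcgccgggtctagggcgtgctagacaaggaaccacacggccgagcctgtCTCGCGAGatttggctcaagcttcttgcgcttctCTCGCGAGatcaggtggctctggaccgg
Idh2: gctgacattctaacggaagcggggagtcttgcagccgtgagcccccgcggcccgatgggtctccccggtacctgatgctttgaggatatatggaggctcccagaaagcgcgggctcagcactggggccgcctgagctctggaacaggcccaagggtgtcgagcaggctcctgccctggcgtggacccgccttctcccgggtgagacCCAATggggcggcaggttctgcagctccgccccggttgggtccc
Got1 held 5 CCAAT boxes and 1 C/EBP-ATF element, which directly follows a CCAAT box, while Got2 held none of the 3 marked motifs. Pck2 held the other C/EBP-ATF element found, so 2 of 29 members held it, a share of 6.90%, against 2.33% of the 9294 tested genes with a window and 3.91% of all 27025 genes with a window. Mdh2 held 3 copies of the palindrome, which 2 members held (Mdh2 and Slc25a11, 6.90%), and which was in 1.90% of the tested genes and 0.862% of all genes with a window; this motif was chosen after the Mdh2 sequence had been seen, and the others after the values had. CCAAT boxes were in 17 members (58.6%), in 41.0% of the tested genes and in 37.5% of all genes. Motifs bound by factors in cytokine and growth signalling were also searched on both strands. The STAT motif TTCNNNGAA was in 0 members, in 7.11% of the tested genes and in 8.13% of all genes, and the E-box CACGTG was in 3 members (10.3%), in 10.1% of the tested genes and in 6.86% of all genes. The GC box GGGCGG was in 22 members (75.9%), in 64.5% of the tested genes and in 35.4% of all genes, and the core NRF1 motif CGCANGCG was in 6 members (20.7%), in 17.0% of the tested genes and in 7.65% of all genes. A match of letters is a description of the window and no evidence that a factor was bound.

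Glutamate enters the cycle through glutamate dehydrogenase, Glud1, or through transaminases such as Gpt2, which makes alanine and 2-oxoglutarate. Glud1 was at 285, 249.9 and 237 CPM in Yoda1 4, 5 and 6, against 264, 301 and 269.6 CPM in DMSO 1, 2 and 3, with overlapping groups and a log2 interval of -0.36 to 0.14. Gpt2 was at 28.8, 7.33 and 25.1 CPM in Yoda1 4, 5 and 6, against 36.4, 45.1 and 26.7 CPM in DMSO 1, 2 and 3. Yoda1 5 was far below the other 5 libraries, which overlapped, and the log2 change of -0.83 had the widest interval of the 31 genes (-1.84 to 0.19). Without Yoda1 5 it was -0.42.

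Single libraries departed from their group for several members. Among others, Yoda1 5 was the lowest of the 6 libraries for Idh2, Ogdh, Gpt2, Sucla2, Cs, Slc25a11 and Me2, and Yoda1 6 was the highest for Mpc1 and Mpc2 and the lowest for Pcx. The coefficient of variation was larger among the Yoda1 than among the DMSO libraries for 24 of the 31 genes (77.4%), and for 63.5% of all tested genes. Its median over the members was 11.3% with Yoda1 and 7.58% with DMSO, and over all tested genes it was 22.4% with Yoda1 and 17.1% with DMSO.

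**Figure D4:**
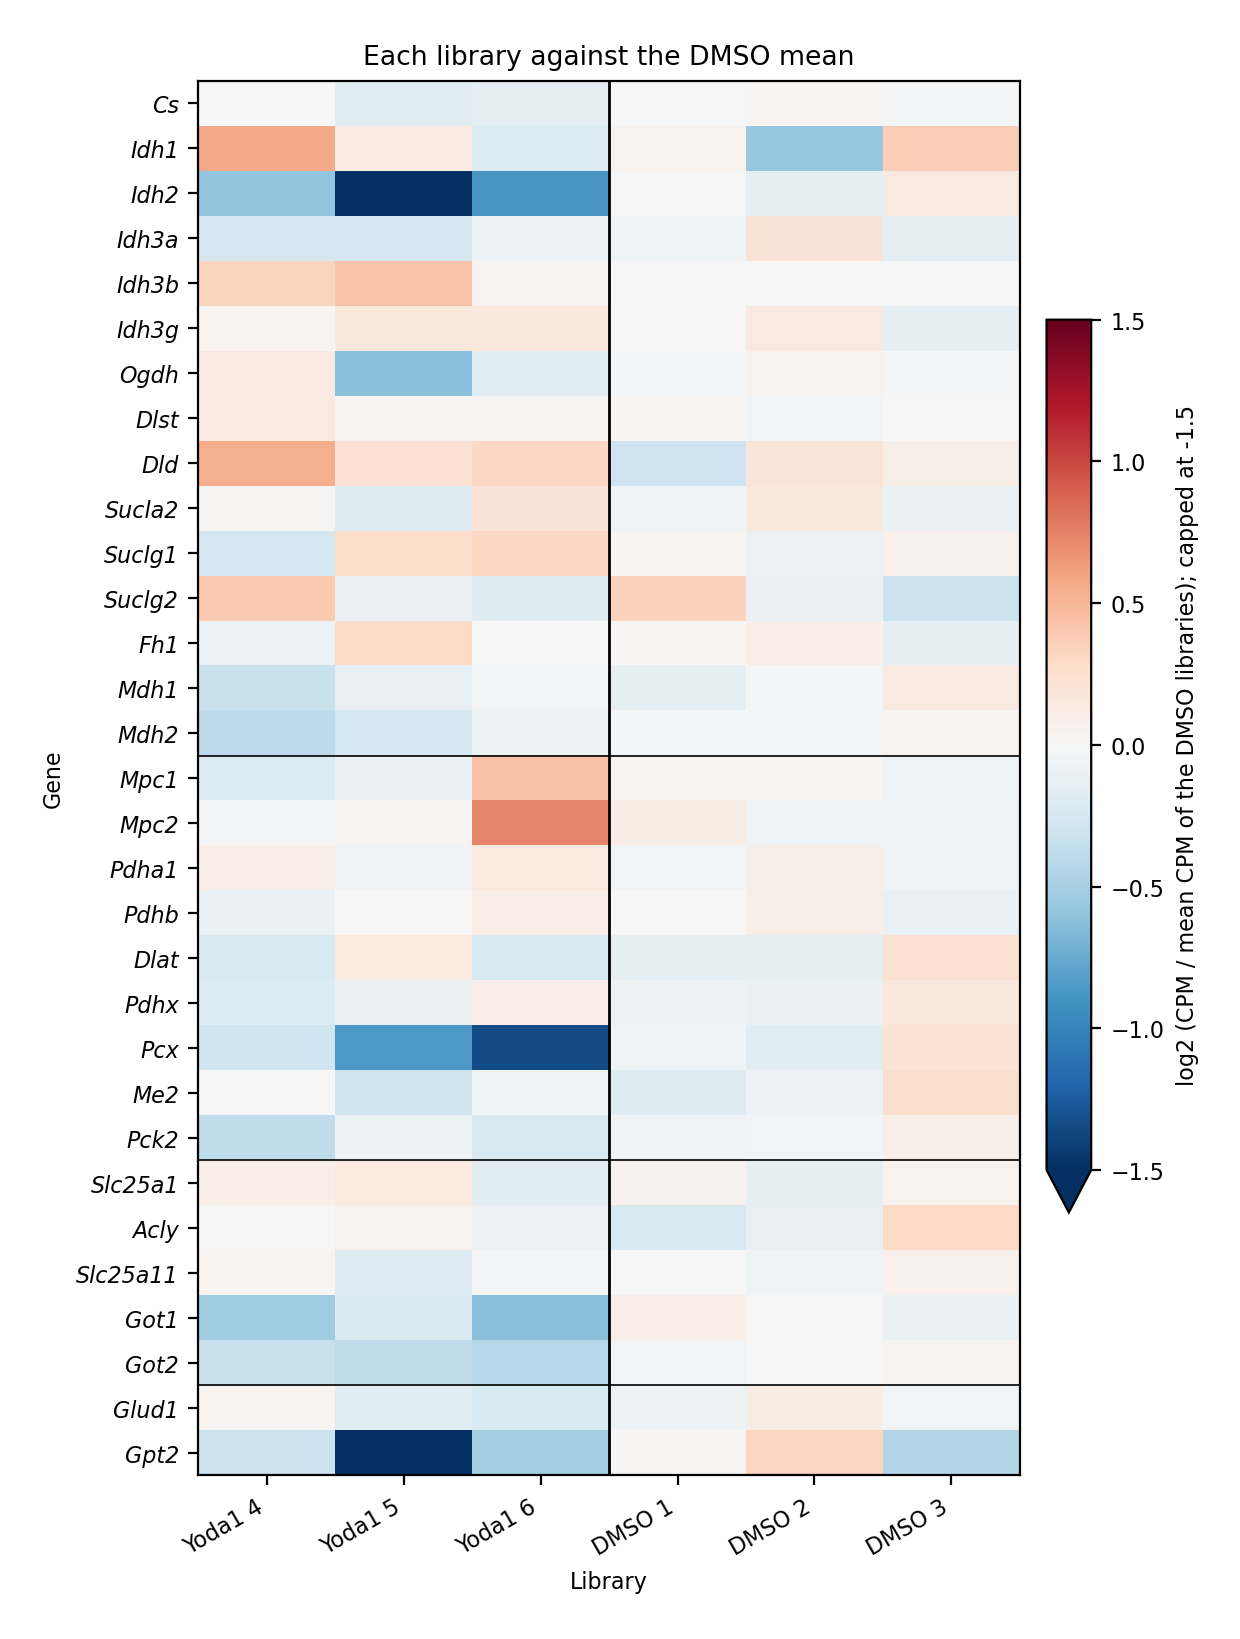
Each library's level of the 31 genes relative to the mean of the DMSO libraries (log2 of the CPM ratio; red higher, blue lower, capped at -1.5), with Yoda1 libraries left of the black line. Got1 and Got2 are blue in all 3 Yoda1 libraries, Gpt2 is darkest in Yoda1 5, and Mpc1 and Mpc2 are reddest in Yoda1 6.

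Around these genes, the only pathway genes that passed with edgeR were Ldha and Slc16a3, 2 of the 4 tested for lactate. The others, Ldhb and Slc16a1, had log2 changes of -0.60 and -0.51 (Benjamini-Hochberg adjusted p = 0.320 and 0.401 with edgeR). A list of 70 further genes of the pathway held 65 in the table and 59 tested; 2 fell, 0 rose and 57 did not pass with edgeR, and without adjustment p was under 0.05 for 14 of them, 6 higher and 8 lower. Over all tested genes the shares were 1.49% with adjustment (0.57% higher and 0.923% lower) and 14.5% without (7.39% higher and 7.11% lower). Ldha, which turns pyruvate into lactate, fell to 3329 ± 137 CPM with Yoda1, against 4557 ± 70.0 CPM with DMSO (SD, n = 3 each), a log2 change of -0.45 (SE 0.05, Benjamini-Hochberg adjusted p = 0.00734 with edgeR). Slc16a3, a lactate exporter, fell to 31.8 ± 3.74 CPM with Yoda1, against 73.4 ± 6.15 CPM with DMSO, a log2 change of -1.21 (SE 0.16, Benjamini-Hochberg adjusted p = 0.0119 with edgeR). Both calls were lost when libraries sharing a label number were added together (edgeR adjusted p = 0.168 and 0.178) and without DMSO 2 (0.0744 and 0.0714) or DMSO 3 (0.073 and 0.0929), where each pair of values is for Ldha and for Slc16a3. Both were also lost in fits that leave a single DMSO library as the control, which by itself can lose a call. With the label suffix as a term that control is DMSO 3, and the log2 changes were -0.44 for Ldha and -1.24 for Slc16a3. Against DMSO 1 alone they were -0.45 and -1.31. The Slc16a3 call was also lost without DMSO 1 (0.0768) and without Yoda1 5 (0.0717). Over the 16 alternatives the log2 change itself stayed between -0.51 and -0.42 for Ldha and between -1.31 and -1.12 for Slc16a3.

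Succinate dehydrogenase oxidises succinate to fumarate in the cycle. Sdhaf4, an assembly factor of succinate dehydrogenase, was at 30.4 ± 3.67 CPM with Yoda1 and 21.3 ± 2.10 CPM with DMSO (SD, n = 3 each). For the 4 subunits of that enzyme, none of which passed with edgeR, the log2 changes lay between -0.10 for Sdhd and 0.02 for Sdha.

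Of 14 tested genes of glutamine uptake and use, 0 passed. The amino acid transporter Slc7a5 was at 236, 215 and 194 CPM in Yoda1 4, 5 and 6, against 322, 283 and 274 CPM in DMSO 1, 2 and 3, and Psat1, which uses glutamate in serine synthesis, at 245, 241 and 238 CPM in Yoda1 4, 5 and 6, against 287, 305 and 329 CPM in DMSO 1, 2 and 3. The groups of both genes did not overlap, and neither passed (Benjamini-Hochberg adjusted p with edgeR = 0.105 for Slc7a5 and 0.123 for Psat1). Both passed with DESeq2 (adjusted p = 0.00567 for Slc7a5 and 0.0104 for Psat1). The glutamine carrier Slc1a5 was at 392 ± 38.8 CPM with Yoda1 and 456 ± 54.2 CPM with DMSO (SD, n = 3 each). Of 7 genes for lipoate, the cofactor of Dlat and Dlst, 0 passed and 6 had positive log2 changes. Over all tested genes 51.0% were positive. The groups overlapped for 5 of the 7, all but Lias and Lipt1, which had the smallest p with edgeR. Lias, which makes lipoate, was at 58.7, 52.2 and 70.2 CPM in Yoda1 4, 5 and 6, against 33.1, 44.6 and 47.7 CPM in DMSO 1, 2 and 3, and Lipt1, which transfers it, at 11.1, 4.73 and 6.33 CPM in Yoda1 4, 5 and 6, against 2.76, 2.52 and 3.40 CPM in DMSO 1, 2 and 3. No Yoda1 library was below a DMSO library for either gene, and neither passed (Benjamini-Hochberg adjusted p with edgeR = 0.256 for Lias and 0.195 for Lipt1).

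None of 6 tested kinases and phosphatases that control pyruvate dehydrogenase passed. Pdk3 was at 66.6 ± 6.43 CPM with Yoda1 and 72.7 ± 6.93 CPM with DMSO (SD, n = 3 each), and Pdk2 at 8.35 ± 3.82 CPM with Yoda1 and 6.02 ± 1.39 CPM with DMSO. Of 6 tested mitochondrial carriers, 0 passed, and Slc25a10, which carries dicarboxylates, was at 41.0 ± 14.0 CPM with Yoda1 and 64.1 ± 9.92 CPM with DMSO, with Slc25a5, an ADP and ATP carrier, at 1059.6 ± 122 CPM with Yoda1 and 1185 ± 114 CPM with DMSO. Of 7 tested malic enzyme and acetyl-CoA genes, 0 passed; the cytosolic malic enzyme Me1 was at 69.8, 81.4 and 70.2 CPM in Yoda1 4, 5 and 6, against 113, 97.3 and 118 CPM in DMSO 1, 2 and 3, with all Yoda1 libraries lower (Benjamini-Hochberg adjusted p = 0.0868 with edgeR). Me1 passed with DESeq2 (adjusted p = 0.0031). Acss1, which makes acetyl-CoA from acetate in mitochondria, was at 10.4 ± 4.97 CPM with Yoda1 and 3.50 ± 1.77 CPM with DMSO (SD, n = 3 each). Of 5 tested relatives among oxoacid enzymes, 0 passed, and the branched-chain oxoacid dehydrogenase genes Bckdha and Dbt had log2 changes of 0.30 (SE 0.25) and 0.27 (SE 0.31).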

How the data were processed

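RNA-seq libraries of 3 Yoda1 and 3 DMSO samples were grouped by the treatment in the labels; the series' design text and the deposited table's treatment column call the control PBS, and the sample labels were followed. Per the labels' protocols, 10 ng of total RNA made the cDNA. The authors deposited expected counts, gene-level estimates of reads that are not all whole, in a single table; Partek software was used per the table's name, the build was mm10 per the submitters' processing notes, and the aligner, counting method, strand setting and annotation were not given in the sources used here. Expected counts can divide reads between near-identical genes, and 9 of the 31 genes overlap another gene of the table (Fh1, Idh3b, Mdh1, Mpc1, Pdha1, Pcx, Sucla2, Slc25a11 and Got2). Counts were rounded and tested with edgeR 4.0.16 in R 4.3.3: TMM factors, genes passing filterByExpr with a minimum count of 10 and a minimum total of 15, and glmQLFTest after glmQLFit, Benjamini-Hochberg adjusted p under 0.05. The SE is the log2 change over the square root of F, and intervals are 95%, unadjusted. At 3 counts of the total, the level that a zero allows, libraries differ between 0.0949 and 0.211 CPM, for counting error only. A suffix in the labels (0 for DMSO 1 and DMSO 2, another number for the rest) has no stated meaning. With this suffix as a term in the fit, DMSO 3 is the only DMSO library set against the Yoda1 libraries. DESeq2 1.42.0 and limma 3.58.1 were alternatives. All 31 genes are reported, with pathway genes past the threshold or, in a list with none, the 2 with the smallest p. The succinate dehydrogenase subunits, Slc1a5, Ldhb and Slc16a1 were added after their values were seen. Some pathway genes are not reported here but stayed in the tests. The members and lists were chosen with earlier results of these data known. Positions and transcript lengths are from GENCODE M21.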

Additional observations from a re-analysis of the deposited data

How the results depend on the processing

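The count of 0 members called held with other scaling factors, limma voom, no filter, the label suffix as a term, summed libraries with a shared label number, each library left out (0 to 0) and DMSO 1 alone, which was added after seeing the data. It was 3, all lower, with DESeq2 (Got1, Got2 and Idh2) and 2, all lower, with a filter of 10 CPM in 3 libraries (Got2 and Idh2). Of all genes tested, that filter called 448 of 8518 and DESeq2 called 866 of the 9965 to which it gave an adjusted p. The label suffix as a term and DMSO 1 alone each leave a single DMSO library as the control, so a count of 0 there says little. Few genes of any kind were called with summed libraries (1 of 14303 tested) and without DMSO 3 (9 of 13957) or DMSO 2 (22 of 13929). The same held without DMSO 1 (34 of 13907) and without Yoda1 5 (34 of 13995). A count of 0 members says little in these fits too.

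Over all genes the count was 199, and became 866 with DESeq2, 300 with voom, 448 with the 10 CPM filter, 3 with the suffix as a term, 1 with summed libraries, 0 with DMSO 1 alone, and 9 to 220 without each library; leaving out DMSO 3 gave 9, DMSO 2 22, DMSO 1 34 and Yoda1 5 34.

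Some genes that had not passed changed sign; the cause was not tested. With label suffix as a term, the log2 change was -0.17 for Idh1, -0.022 for Slc25a1 and -0.30 for Dbt. With upper quartile factors, the log2 change was -0.037 for Sucla2, -0.0023 for Suclg2, -0.046 for Pdhb and -0.017 for Slc25a1. With limma voom, the log2 change was -0.0088 for Sucla2, -0.0051 for Pdhb and 0.027 for Acly. With 10 CPM in 3 libraries, the log2 change was -0.018 for Sucla2 and -0.027 for Pdhb. With shared label numbers summed, the log2 change was -0.12 for Suclg2, 0.015 for Pdhx, -0.013 for Slc25a1 and 0.059 for Acly. With DMSO 1 alone as control, the log2 change was -0.29 for Suclg2, -0.011 for Pdhb, 0.028 for Dlat, 0.0048 for Pdhx, 0.069 for Me2, -0.036 for Slc25a1, 0.20 for Acly and -0.058 for Bckdha. With library totals alone, the log2 change was -0.0018 for Pdhb. Without each library in turn, log2 changes ran from -0.024 to 0.41 for Idh1, -0.080 to 0.11 for Sucla2, -0.14 to 0.26 for Suclg2, -0.041 to 0.15 for Fh1, -0.15 to 0.20 for Mpc1, -0.054 to 0.055 for Pdhb, -0.23 to 0.024 for Dlat, -0.15 to 0.013 for Pdhx, -0.19 to 0.016 for Me2, -0.025 to 0.12 for Slc25a1, -0.11 to 0.15 for Acly, -0.11 to 0.0021 for Slc25a11. Log2 differences of the paired ratios ran from -1.45 to -0.95 for Idh2 to Idh1, -0.14 to -0.035 for Mdh2 to Mdh1, -0.00077 to 0.20 for Got2 to Got1, -0.12 to 0.26 for Suclg2 to Sucla2, 0.16 to 0.24 for Mpc2 to Mpc1, 0.074 to 0.28 for Idh3b to Idh3g, -0.12 to 0.0043 for Pdhb to Pdha1 without each library; summing libraries gave -0.15 for Suclg2 to Sucla2. No paired analysis was possible because the libraries of the groups share no replicate number. Dld, Idh3b and 17 other members kept their sign in all 16 alternatives. Each member had at least 127 counts in every library, so none was near the limit of detection.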
